A study of Homo sapiens with 8 samples.

Results

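Amino acid transporters were taken here as the genes of the solute carrier families SLC1, SLC3, SLC7, SLC36, SLC38 and SLC43, found by their symbols in the count tables with pseudogenes left out. The rule found 40 of 61533 genes, and 26 of the 40 had enough counts to be tested, among 18738 genes tested in all. RNA was measured in CAL27 cells given NEDD8i, CAL27 cells given DMSO, A431 cells given NEDD8i and A431 cells given DMSO, each for 16 h and each with 2 libraries. CAL27 is labelled a squamous cell carcinoma line and A431 an epidermoid carcinoma line. NEDD8i stands for an inhibitor of the NEDD8 pathway, which attaches the ubiquitin-like protein NEDD8 to cullins and so activates a large class of ubiquitin ligases; DMSO is its solvent control. The labels give neither the compound nor its dose. Nothing in them ties the libraries of 1 group to separate cultures, so the p-values measure the spread between these libraries, which may be technical. The cells carry no engineered allele per the labels, and each line is a single model of its tumour type.

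Cells take up amino acids through families of carriers with different driving forces. SLC1 and most SLC38 carriers use the sodium gradient, and some SLC36 carriers use protons. The SLC7 light chains are exchangers that reach the membrane bound to a heavy chain of the SLC3 family. Through this pairing SLC3A2 serves both xCT (SLC7A11), which imports cystine in exchange for glutamate, and LAT1 (SLC7A5), which imports leucine and other large neutral amino acids. Several of these genes are known targets of ATF4, a transcription factor that is made when amino acids run short, and SLC7A11 is also a known target of NRF2, the factor that answers oxidative stress.

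The libraries held 49037868 to 62509817 counts each, and 3 counts in a library are 0.048 to 0.0612 CPM, the counts of a gene scaled to its library's size. The 8 epithelial and squamous markers checked, among them KRT5, TP63 and EGFR, were detected in every library. They summed to 17140 and 17880 CPM in CAL27 NEDD8i libraries, against 14680 and 14670 CPM in CAL27 DMSO libraries. In A431 they summed to 13710 and 13340 CPM under NEDD8i, against 11430 and 11440 CPM under DMSO. By the test given below, 5 of the 8 rose and 3 fell in CAL27, against 23.2% and 26.4% of all genes tested. In A431 5 rose and 2 fell, against 22.5% and 21.1%. Those that fell in CAL27 were KRT5, TP63 and EGFR. The 4 leukocyte markers summed to 0 to 0.167 CPM, and in every library 3 or 4 of them were at 0. The 6 mesenchymal markers summed to 7.77 and 12.5 CPM in CAL27 NEDD8i libraries, against 22.4 and 24.8 CPM in CAL27 DMSO libraries, and to 18.2 and 17.6 CPM in A431 NEDD8i libraries, against 38.9 and 35.6 CPM in A431 DMSO libraries. The 3 endothelial markers summed to 10.7 and 10.3 CPM in CAL27 NEDD8i libraries, against 6.63 and 5.95 CPM in CAL27 DMSO libraries. In A431 they summed to 5.56 and 5.23 CPM under NEDD8i, against 21.9 and 19.6 CPM under DMSO. These shifts were mostly CDH5, at 10.55 and 10.05 CPM in CAL27 NEDD8i libraries, against 6.37 and 5.37 CPM in CAL27 DMSO libraries. In A431 CDH5 had 2.01 and 2.48 CPM under NEDD8i, against 18.7 and 16.6 CPM under DMSO. VWF had 3.02 and 2.66 CPM in A431 NEDD8i libraries, against 2.82 and 2.72 CPM in A431 DMSO libraries. The 3 melanocyte markers summed to 0.76 to 3.09 CPM. Mitochondrial genes took 1.45% and 1.02% of counts in CAL27 NEDD8i libraries, against 1.77% and 1.56% in CAL27 DMSO libraries, and 1.96% and 2.27% in A431 NEDD8i libraries, against 2.69% and 3.15% in A431 DMSO libraries. These shares did not overlap between treatments in either line. The part of these shifts in the transporter results was not tested.

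Transporters moved in both directions under NEDD8i. In CAL27, 9 of the 26 tested transporters rose (34.6%, against 23.2% of all genes tested) and 12 fell (46.2%, against 26.4% of all genes tested). In A431, 10 rose (38.5%, against 22.5% of all genes tested) and 7 fell (26.9%, against 21.1% of all genes tested). A gene counted as changed at a Benjamini-Hochberg adjusted p under 0.05 by edgeR's quasi-likelihood test over all genes tested. These counts describe the members that passed the filter, some of which passed through a single group, and the difference of their share from that of all genes was not tested. The median log2 change over the 26 was -0.16 in CAL27 and 0.14 in A431, against -0.04 in CAL27 and -0.01 in A431 over all genes tested. In A431 2 of these genes were at 0 counts throughout; over the other 24, with SLC7A2 at its bound, the median was 0.22. In bulk RNA, fewer cells with a transcript and less of it in each cell cannot be told apart.

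Both lines shared part of the response. SLC7A11, SLC3A2, SLC1A4, SLC1A5, SLC36A1, SLC38A1 and SLC38A9 rose in both, which is 7 of 26 (26.9%, against 13.3% of all genes tested). SLC1A3, SLC7A2, SLC38A4, SLC38A10 and SLC43A2 fell in both, which is 5 of 26 (19.2%, against 12.8% of all genes tested). SLC38A2 and SLC7A6 changed in opposite directions, which is 2 of 26 (7.69%, against 4.99% of all genes tested). Another 7 of 26 changed in CAL27 and did not pass the test in A431, against 18.5% of all genes tested, and 2 of these 7, SLC1A1 and SLC1A2, had 0 counts in A431. In A431, 3 of 26 changed and did not pass it in CAL27, against 12.5% of all genes tested, and SLC38A7 and SLC43A1 passed in neither line.

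Changes of at least 2-fold were more often decreases than increases, as they also were over all genes tested. In CAL27, SLC7A11 alone rose that far, 1 of 26 (3.85%, against 6.43% of all genes tested). There 7 transporters fell by 2-fold or more (26.9%, against 12.3% of all genes tested). In A431, SLC7A11, SLC3A2 and SLC1A4 rose by at least 2-fold, 3 of 26 (11.5%, against 5.48% of all genes tested). Another 5 fell that far in A431 (19.2%, against 7.93% of all genes tested). Among these 5, SLC7A2, SLC7A7, SLC38A4 and SLC43A2 had at most 4.07 CPM in any A431 library.

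**Figure D1:**
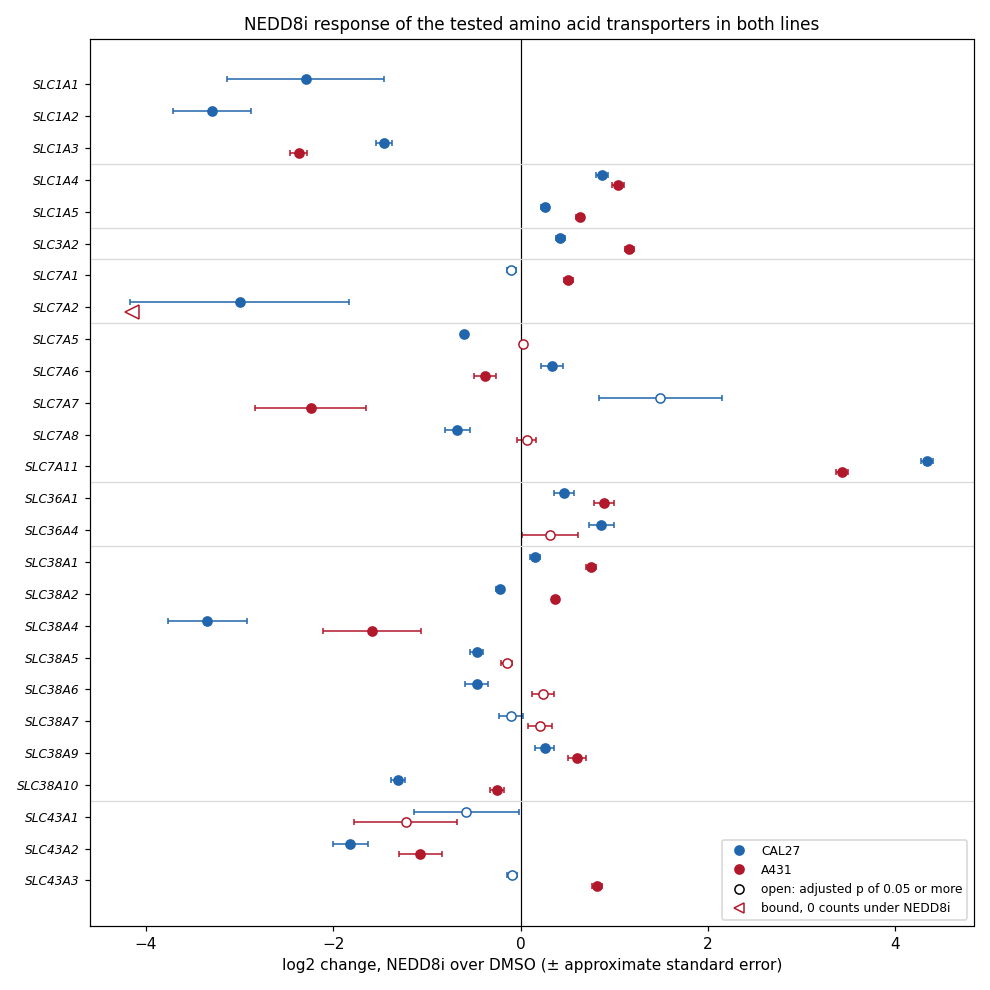
Log2 change (NEDD8i over DMSO, horizontal axis) of the 26 tested transporters, grouped by role, with CAL27 in blue and A431 in red; bars are approximate standard errors of the fit, open circles did not pass the test, and the open triangle marks a bound for SLC7A2, which had 0 counts in A431 NEDD8i libraries. SLC7A11 stands at 4.34 in CAL27 and 3.43 in A431, SLC1A1 and SLC1A2 have no A431 point because they had 0 counts there, and the lowest values belong to SLC1A2, SLC38A4, SLC7A2 and SLC1A3.

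Windows around the RefSeq transcription starts of the members (GRCh38.p14, 250 bases before to 50 after) were searched for 4 motifs and are shown for the transporters that rose in both lines and hold a match, because these members moved together. Of the 40 members 31 matched the RefSeq table, with 53 windows; SLC1A2, SLC3A1, SLC7A2, SLC7A3, SLC7A4, SLC7A11, SLC7A13, SLC38A3 and SLC43A3 were not searched. On both strands the letters TGATGNAA (the core of the element bound by ATF4 dimers), TGACNNNGC (the core of the antioxidant response element bound by NRF2), CACGTG (the E-box) and TGACGTCA (the cAMP response element) were searched; matches of different motifs may share bases. TGATGNAA stood in 6 of the 53 member windows, in SLC1A3, SLC1A4, SLC1A5, SLC38A1, SLC3A2 and SLC7A1, and in 3.62% of 35116 windows of all genes. TGACNNNGC stood in 7 of the 53 and in 13.3% of all windows, CACGTG in 9 of the 53 and in 7.26% of all windows, and TGACGTCA in 0 of the 53 and in 1.85% of all windows.

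Of the 6 transporters that rose in both lines and have a window, 4 held TGATGNAA in at least 1 window (SLC1A4, SLC1A5, SLC38A1 and SLC3A2), 2 held TGACNNNGC (SLC1A5 and SLC3A2), 2 held CACGTG (SLC1A5 and SLC36A1) and 0 held TGACGTCA. Counted by gene over 27305 RefSeq genes with 35116 windows, 4.46% held TGATGNAA, 16.1% TGACNNNGC, 8.77% CACGTG and 2.25% TGACGTCA. A gene with more windows has more chances of a match. Each of the 6 transporters has more than a single window, so their counts and these shares are not like for like. Stretches of 150 bases from these windows follow, written 5′ to 3′ along the gene. SLC1A3, which fell in both lines and also held the motif, is added for comparison and was chosen after its values were seen. Capitals mark the searched motifs, on either strand; the TGACNNNGC and CACGTG matches of SLC1A5 lie in another of its windows and are not shown. The stretches were read from chr2:64989269-64989418 (plus strand) for SLC1A4, chr19:46784815-46784964 (minus strand) for SLC1A5, chr12:46266497-46266646 (minus strand) for SLC38A1, chr11:62881569-62881718 (plus strand) for SLC3A2, chr5:151447473-151447622 (plus strand) for SLC36A1 and chr5:36596338-36596487 (plus strand) for SLC1A3.
SLC1A4: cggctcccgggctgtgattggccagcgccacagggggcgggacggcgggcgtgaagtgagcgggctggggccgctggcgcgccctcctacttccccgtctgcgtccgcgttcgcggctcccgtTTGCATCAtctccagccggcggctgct
SLC1A5: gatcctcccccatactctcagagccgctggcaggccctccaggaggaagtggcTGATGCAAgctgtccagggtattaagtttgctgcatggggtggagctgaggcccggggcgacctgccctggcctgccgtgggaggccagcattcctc
SLC38A1: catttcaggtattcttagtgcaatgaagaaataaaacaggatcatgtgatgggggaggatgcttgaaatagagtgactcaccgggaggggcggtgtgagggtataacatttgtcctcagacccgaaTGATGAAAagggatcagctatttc
SLC3A2: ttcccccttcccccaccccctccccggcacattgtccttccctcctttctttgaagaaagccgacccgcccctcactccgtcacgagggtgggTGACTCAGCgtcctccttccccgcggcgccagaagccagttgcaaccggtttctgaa
SLC36A1: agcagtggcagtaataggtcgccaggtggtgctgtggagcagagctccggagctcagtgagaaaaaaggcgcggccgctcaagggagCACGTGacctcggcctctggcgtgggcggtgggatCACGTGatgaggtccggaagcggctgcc
SLC1A3: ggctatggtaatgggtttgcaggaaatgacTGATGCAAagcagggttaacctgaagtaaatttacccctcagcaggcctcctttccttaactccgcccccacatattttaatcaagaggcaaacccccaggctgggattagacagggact
In SLC3A2 the capitals are a TGACNNNGC match, 37 bases before the start, and its TGATGNAA match lies 38 bases after the start, outside the stretch shown. In SLC36A1 they are CACGTG matches 43 and 8 bases before the start. Here the start is the RefSeq start of the window shown, and the other windows of SLC3A2 held no searched motif. Of the stretches shown, only that of SLC1A3 belongs to the outermost start of its gene, and the others belong to starts inside the gene's listed bounds. A match is a description of the letters and not of binding, and SLC1A3 shows that the letters stood before a gene that fell as well.

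SLC7A11 encodes xCT, the light chain that imports cystine for glutathione synthesis (ENSG00000151012.13, chr4:138164097-138242349, minus strand). It had 469 and 455 CPM in CAL27 NEDD8i libraries, against 23.0 and 22.7 CPM in CAL27 DMSO libraries. In A431, SLC7A11 had 1206 and 1193 CPM under NEDD8i, against 102 and 119.9 CPM under DMSO. Every NEDD8i library lay far above every DMSO library of its line, and the CAL27 NEDD8i libraries also lay above the A431 DMSO libraries. SLC7A11 rose by 4.34 ± 0.07 on the log2 scale in CAL27, or 20.3-fold (edgeR adjusted p = 7.82e-18), and by 3.43 ± 0.06 in A431, or 10.8-fold (edgeR adjusted p = 5.51e-17). Here and below, ± after a log2 change is the approximate standard error of the fit, with n = 2 libraries a group. The response was larger in CAL27 by 0.91 ± 0.08 (edgeR test of the difference, adjusted p = 1.61e-07), from a level that was 4.87-fold lower in CAL27 than in A431 under DMSO. SLC7A11 is listed with 2.86% of its exonic bases inside other genes, and the antisense gene there, SLC7A11-AS1, held 155 counts over the 8 libraries.

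SLC3A2, the heavy chain 4F2hc that carries SLC7A11, SLC7A5 and other light chains to the membrane, rose less (ENSG00000168003.18, chr11:62856004-62888880, plus strand). It had 1005 and 1112 CPM in CAL27 NEDD8i libraries, against 784 and 793 CPM in CAL27 DMSO libraries. In A431, SLC3A2 had 1943 and 1833 CPM under NEDD8i, against 832 and 856 CPM under DMSO. The groups did not overlap in either line, and the DMSO libraries of the lines lay close together. SLC3A2 rose by 0.42 ± 0.05 in CAL27, or 1.34-fold (edgeR adjusted p = 4.36e-07), and by 1.16 ± 0.05 in A431, or 2.24-fold (edgeR adjusted p = 1.65e-12). The CAL27 response was smaller by 0.74 on the log2 scale, a difference of -0.74 ± 0.06 (edgeR adjusted p = 1.09e-07). SLC3A1, the other heavy chain, which pairs with SLC7A9 in kidney, had 0 to 2 counts a library and was not tested.

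SLC7A5 encodes LAT1, the leucine importer, and was added to the members described by library after its values were seen (ENSG00000103257.9, chr16:87830023-87869507, minus strand). It had 1648 and 1624 CPM in CAL27 NEDD8i libraries, against 2517 and 2467 CPM in CAL27 DMSO libraries. In A431, SLC7A5 had 2814 and 2728 CPM under NEDD8i, against 2689 and 2752 CPM under DMSO. The CAL27 groups stood apart, while the A431 groups overlapped. SLC7A5 fell by 0.61 ± 0.03 in CAL27, or 1.52-fold (edgeR adjusted p = 4.82e-11), and its value in A431 was 0.03 ± 0.03 (edgeR adjusted p = 0.552). The responses differed by -0.63 ± 0.05 (edgeR adjusted p = 1.03e-08).

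Because SLC7A11 and SLC7A5 share the SLC3A2 heavy chain, the ratios of their transcripts were set out within each library, as counts per kb of exonic length. The kit counts transcript 3′ ends, so the ratio itself is not a ratio of molecules, and only its shift between groups is described. SLC7A11 over SLC3A2 was 0.128 and 0.112 in CAL27 NEDD8i libraries, against 0.00801 and 0.00781 in CAL27 DMSO libraries. In A431 the same ratio was 0.170 and 0.178 under NEDD8i, against 0.0337 and 0.0383 under DMSO. Means of the ratio were thus 15.1-fold higher under NEDD8i in CAL27 and 4.83-fold higher in A431. The groups of each line were far apart, and in fold terms the lines lay closer together under NEDD8i than under DMSO.

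The ratio of SLC7A5 to SLC3A2 transcripts moved the other way. SLC7A5 over SLC3A2 was 0.939 and 0.836 in CAL27 NEDD8i libraries, against 1.84 and 1.78 in CAL27 DMSO libraries. In A431 it was 0.829 and 0.852 under NEDD8i, against 1.85 and 1.84 under DMSO. Its mean under NEDD8i was 0.491 of the DMSO mean in CAL27 and 0.456 of it in A431. In CAL27 both a lower SLC7A5 and a higher SLC3A2 entered the ratio, and in A431 the higher SLC3A2 did. SLC7A11 over SLC7A5 was higher under NEDD8i by 30.9-fold in CAL27 and 10.6-fold in A431. These ratios were not tested: with 2 libraries against 2, an exact two-sided permutation test of a single value cannot go below p = 0.333.

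**Figure D2:**
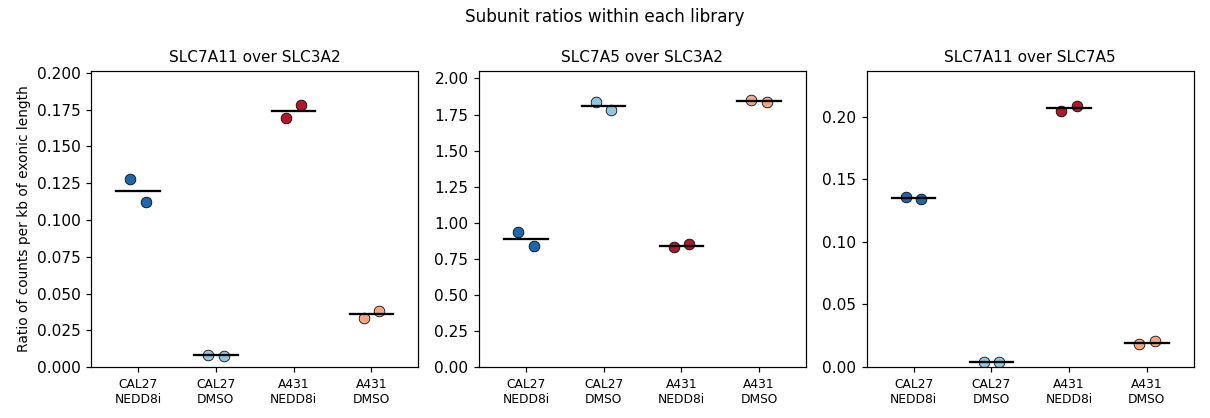
Ratios of SLC7A11 to SLC3A2, SLC7A5 to SLC3A2 and SLC7A11 to SLC7A5 in each library (counts per kb of exonic length, vertical axis); points are libraries and lines are group means of CAL27 and A431 under NEDD8i and DMSO. SLC7A11 over SLC3A2 is higher under NEDD8i by 15.1-fold in CAL27 and 4.83-fold in A431, and SLC7A5 over SLC3A2 is lower in both lines.

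None of the other tested SLC7 light chains rose in both lines as SLC7A11 did. SLC7A7 encodes y+LAT1, an exporter of cationic amino acids, and was sparse (ENSG00000155465.20, chr14:22773222-22819811, minus strand). It had 0.632 and 0.635 CPM in CAL27 NEDD8i libraries, against 0.0370 and 0.393 CPM in CAL27 DMSO libraries. In A431, SLC7A7 had 0.525 and 0.819 CPM under NEDD8i, against 2.33 and 4.07 CPM under DMSO. The groups did not overlap in either line, but the DMSO libraries of each line lay far apart. SLC7A7 fell by 2.24 ± 0.59 in A431 (edgeR adjusted p = 0.00507), and its CAL27 value was 1.49 ± 0.66 (edgeR adjusted p = 0.0711). The responses differed by 3.73 ± 0.88 (edgeR adjusted p = 0.00304). Without A431 DMSO replicate 2 the A431 value was -1.78 (edgeR adjusted p = 0.0504). Without CAL27 DMSO replicate 2 the CAL27 value was 4.03 (edgeR adjusted p = 0.0012) and the difference 6.26, and without CAL27 DMSO replicate 1 the CAL27 value was 0.70; without A431 DMSO replicate 1 it was 1.51 (edgeR adjusted p = 0.0445). With no low-count filter the CAL27 value passed as well (edgeR adjusted p = 0.0207).

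SLC7A6, which encodes y+LAT2 and was also added after its values were seen, changed in opposite directions. It had 18.9 and 19.2 CPM in CAL27 NEDD8i libraries, against 14.6 and 15.7 CPM in CAL27 DMSO libraries. In A431, SLC7A6 had 9.76 and 9.03 CPM under NEDD8i, against 11.9 and 12.5 CPM under DMSO. The groups did not overlap in either line, though the steps were small. SLC7A6 rose by 0.33 ± 0.11 in CAL27 (edgeR adjusted p = 0.0226) and fell by 0.38 ± 0.12 in A431 (edgeR adjusted p = 0.016), and the responses differed by 0.71 ± 0.17 (edgeR adjusted p = 0.00266). The CAL27 call was lost without CAL27 DMSO replicate 1 (log2 change 0.30), without CAL27 NEDD8i replicate 1 (0.34) and without CAL27 NEDD8i replicate 2 (0.33), and the A431 call without A431 DMSO replicate 2 (-0.35) and without A431 NEDD8i replicate 2 (-0.31). Of its exonic bases 58.9% lie inside other genes, SLC7A6OS on the opposite strand among them, so its counts are uncertain. SLC7A8, which encodes LAT2, fell by 0.68 ± 0.13 in CAL27 (edgeR adjusted p = 0.000397) and had a value of 0.06 ± 0.10 in A431 (edgeR adjusted p = 0.683).

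Cationic carriers split as well. SLC7A1, which encodes CAT1, an importer of arginine and lysine, had 280.4 and 262 CPM in CAL27 NEDD8i libraries, against 285 and 297 CPM in CAL27 DMSO libraries. In A431, SLC7A1 had 264 and 267 CPM under NEDD8i, against 183 and 191 CPM under DMSO, so the groups stood clearly apart in A431 and close together in CAL27. SLC7A1 rose by 0.51 ± 0.05 in A431 (edgeR adjusted p = 1.36e-07), and its CAL27 value was -0.10 ± 0.05 (edgeR adjusted p = 0.0919), or -0.16 (edgeR adjusted p = 0.0183) without CAL27 NEDD8i replicate 1. SLC7A2, which encodes CAT2, was near the floor, with 0.0372 and 0.0668 CPM in CAL27 NEDD8i libraries, against 0.630 and 0.242 CPM in CAL27 DMSO libraries. In A431, SLC7A2 had 0 counts in both NEDD8i libraries, against 48 and 10 counts (0.834 and 0.194 CPM) in the DMSO libraries. With these 58 counts together, it was at least 17.8-fold lower when 3 counts over the group are taken as the floor. The bound thus rests mostly on A431 DMSO replicate 1, and only DMSO libraries held enough SLC7A2 counts for the filter. Each mate of a read pair was counted, so this bound is too large as a count of fragments. The fitted CAL27 change of SLC7A2 was -3.00 ± 1.17 (edgeR adjusted p = 0.044). It was no longer called when A431 DMSO replicate 1 (-2.98), CAL27 DMSO replicate 1 (-2.15), CAL27 DMSO replicate 2 (-3.52), CAL27 NEDD8i replicate 1 (-2.66) or CAL27 NEDD8i replicate 2 (-3.46) was left out.

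Both neutral exchangers of the SLC1 family rose in both lines. SLC1A4 encodes ASCT1, an exchanger of alanine, serine and cysteine (ENSG00000115902.11, chr2:64988490-65023865, plus strand). It had 67.6 and 65.4 CPM in CAL27 NEDD8i libraries, against 37.2 and 35.7 CPM in CAL27 DMSO libraries. In A431, SLC1A4 had 151 and 140.5 CPM under NEDD8i, against 69.8 and 71.8 CPM under DMSO. The groups were well separated, and the CAL27 NEDD8i libraries stayed just under the A431 DMSO libraries. SLC1A4 rose by 0.87 ± 0.06 in CAL27 (edgeR adjusted p = 2.58e-09) and by 1.04 ± 0.06 in A431 (edgeR adjusted p = 2.72e-10). The difference of the responses was -0.17 ± 0.09 and was not called (edgeR adjusted p = 0.147).

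SLC1A5 encodes ASCT2, a main glutamine carrier of many tumour cells (ENSG00000105281.12, chr19:46774883-46788594, minus strand). It had 339 and 344 CPM in CAL27 NEDD8i libraries, against 289 and 282 CPM in CAL27 DMSO libraries. In A431, SLC1A5 had 966 and 894 CPM under NEDD8i, against 585 and 611 CPM under DMSO. Groups were apart in both lines, and every A431 library lay above every CAL27 library. SLC1A5 rose by 0.26 ± 0.04 in CAL27 (edgeR adjusted p = 0.000101) and by 0.64 ± 0.04 in A431 (edgeR adjusted p = 2.71e-09), and the CAL27 response was the smaller, by a difference of -0.38 ± 0.06 (edgeR adjusted p = 0.000126). Of its exonic bases 23.4% lie inside an antisense gene that itself held 77 counts.

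The glutamate carriers of the same family fell where they were called. SLC1A3 encodes EAAT1 (GLAST), which takes up glutamate and aspartate (ENSG00000079215.15, chr5:36596588-36688334, plus strand). It had 15.6 and 17.2 CPM in CAL27 NEDD8i libraries, against 45.7 and 44.9 CPM in CAL27 DMSO libraries. In A431, SLC1A3 had 11.6 and 11.1 CPM under NEDD8i, against 60.1 and 57.4 CPM under DMSO. The groups were far apart in both lines, with A431 the higher under DMSO and the lower under NEDD8i. SLC1A3 fell by 1.46 ± 0.08 in CAL27, or 2.75-fold (edgeR adjusted p = 1.61e-10), and fell by 2.37 ± 0.09 in A431, or 5.17-fold (edgeR adjusted p = 7.82e-13). The decrease was smaller in CAL27, by a difference of 0.91 ± 0.12 (edgeR adjusted p = 1.37e-05).

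SLC1A2 and SLC1A1 encode the glutamate carriers EAAT2 (GLT-1) and EAAT3 and were seen in CAL27 alone. SLC1A2 had 1.06 and 0.401 CPM in CAL27 NEDD8i libraries, against 7.35 and 6.90 CPM in CAL27 DMSO libraries, and 0 counts in the 4 A431 libraries. SLC1A1 had 0.223 and 0.234 CPM in CAL27 NEDD8i libraries, against 1.11 and 1.15 CPM in CAL27 DMSO libraries, and likewise 0 counts in the 4 A431 libraries. Both were lower in each CAL27 NEDD8i library than in either DMSO library. SLC1A2 fell by 3.29 ± 0.42 in CAL27 (edgeR adjusted p = 7.15e-06). SLC1A1 fell by 2.30 ± 0.84 (edgeR adjusted p = 0.0342), a call that was lost when any of the 4 CAL27 libraries was left out, with values of -2.30 without DMSO replicate 1, -2.25 without DMSO replicate 2, -2.27 without NEDD8i replicate 1 and -2.33 without NEDD8i replicate 2. In A431 no response can be given for either gene, nor a difference between the lines. SLC1A6 was at 0 counts in every library, and SLC1A7 had 4 counts in a single CAL27 NEDD8i library.

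**Figure D3:**
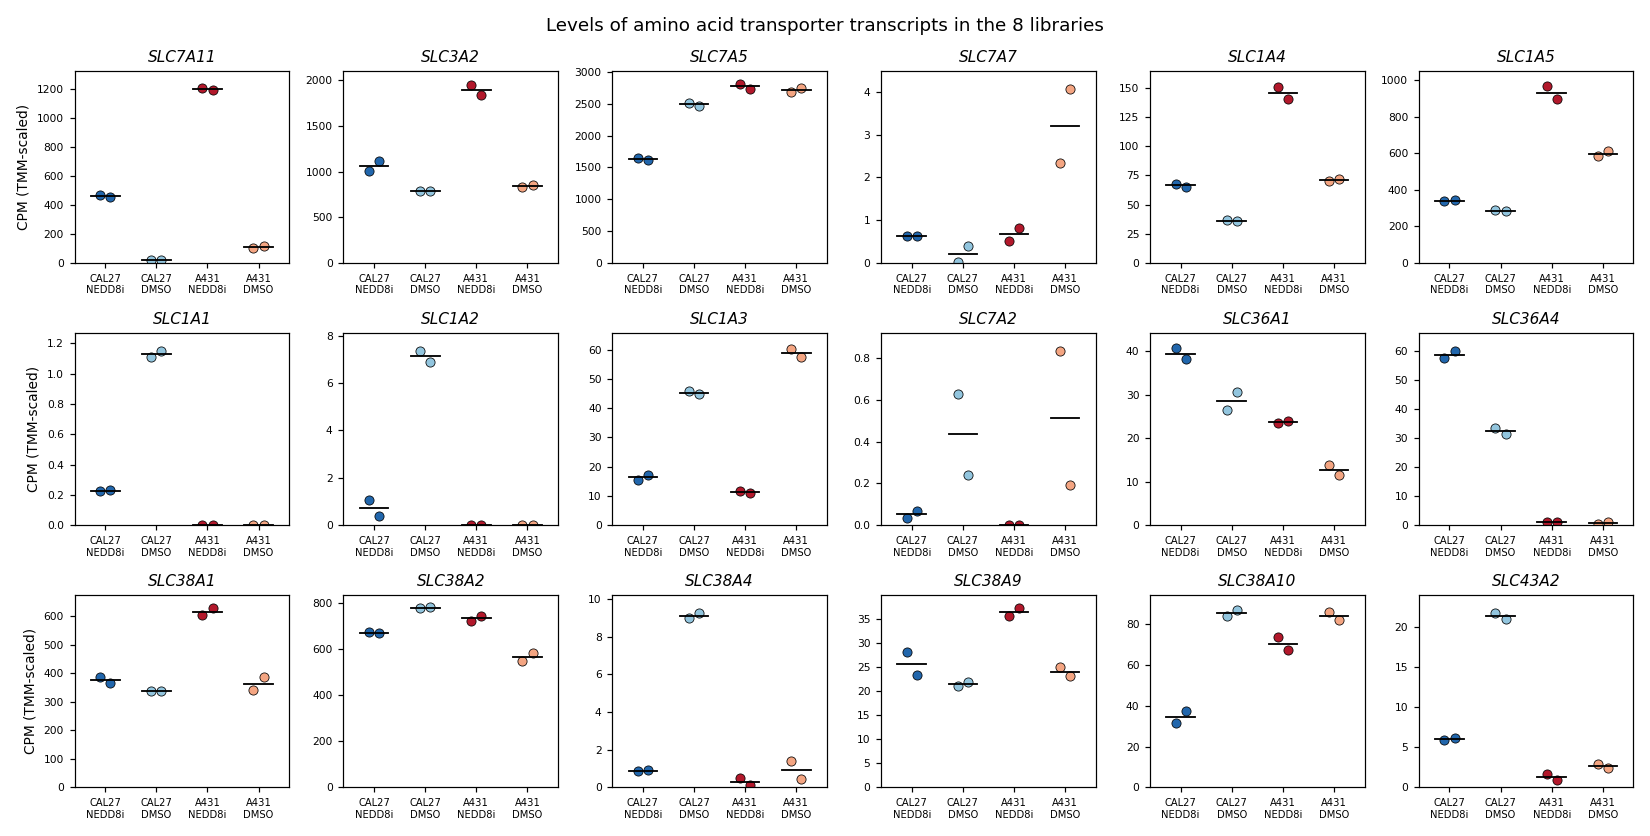
Level (TMM-scaled CPM, vertical axis, starting at 0 and scaled for each gene) of 18 transporters in each library, in the order CAL27 NEDD8i, CAL27 DMSO, A431 NEDD8i and A431 DMSO; points are libraries and lines are group means. SLC7A11 is high in every NEDD8i library, SLC7A5 is lower under NEDD8i in CAL27, and SLC1A1, SLC1A2 and SLC36A4 are at or near 0 in A431.

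Among the SLC38 carriers 8 of 11 were tested, of which 2 rose and 5 fell in CAL27 and 3 rose and 2 fell in A431. Over all genes tested 23.2% rose and 26.4% fell in CAL27, and 22.5% rose and 21.1% fell in A431. The 2 of 8 that rose in CAL27 and the 2 of 8 that fell in A431 thus lie near the shares of all genes. SLC38A1 encodes SNAT1, a sodium-coupled glutamine importer (ENSG00000111371.16, chr12:46183063-46269119, minus strand). It had 387 and 366 CPM in CAL27 NEDD8i libraries, against 339 and 337 CPM in CAL27 DMSO libraries. In A431, SLC38A1 had 602 and 626 CPM under NEDD8i, against 340.5 and 387 CPM under DMSO. The step was wide in A431 and narrow in CAL27, with no overlap in either. SLC38A1 rose by 0.16 ± 0.05 in CAL27 (edgeR adjusted p = 0.022) and by 0.76 ± 0.05 in A431 (edgeR adjusted p = 3.34e-09), and the responses differed by -0.60 ± 0.08 (edgeR adjusted p = 7e-06). The CAL27 call was lost without CAL27 DMSO replicate 2 (0.17, edgeR adjusted p = 0.0601) and without CAL27 NEDD8i replicate 1 (0.11, edgeR adjusted p = 0.139).

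SLC38A2 encodes SNAT2, a carrier of small neutral amino acids whose transcript is known to rise when amino acids run short, and it was added after its values were seen. It had 672 and 667 CPM in CAL27 NEDD8i libraries, against 776 and 782 CPM in CAL27 DMSO libraries. In A431, SLC38A2 had 721 and 744 CPM under NEDD8i, against 549 and 583 CPM under DMSO. Neither line's groups overlapped, and they moved apart in opposite directions. SLC38A2 fell by 0.22 ± 0.04 in CAL27 (edgeR adjusted p = 0.00018) and rose by 0.37 ± 0.04 in A431 (edgeR adjusted p = 6.88e-07), a difference of -0.59 ± 0.06 (edgeR adjusted p = 3.33e-07).

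SLC38A4 encodes SNAT4, best known from liver. It had 0.855 and 0.935 CPM in CAL27 NEDD8i libraries, against 8.97 and 9.26 CPM in CAL27 DMSO libraries. In A431, SLC38A4 had 0.481 and 0.146 CPM under NEDD8i, against 1.39 and 0.427 CPM under DMSO. The CAL27 groups were far apart and the A431 groups overlapped. SLC38A4 fell by 3.34 ± 0.42 in CAL27, or 10.2-fold (edgeR adjusted p = 3.26e-06). In A431 it fell by 1.59 ± 0.52 (edgeR adjusted p = 0.0203). That call rested on single libraries: the value was -0.48 without A431 DMSO replicate 1 and -0.92 without A431 NEDD8i replicate 2, neither called, and -2.63 without A431 NEDD8i replicate 1. A fit of the A431 libraries alone gave -1.54 (edgeR adjusted p = 0.112). The difference of the responses, -1.75 ± 0.69 (edgeR adjusted p = 0.0606), was uncalled in 9 of 14 alternatives. It passed with DESeq2 (adjusted p = 0.0401), with no low-count filter (edgeR adjusted p = 0.0063) and without A431 DMSO replicate 1 (-2.84) or A431 NEDD8i replicate 2 (-2.42) and was -0.69 without A431 NEDD8i replicate 1.

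SLC38A10 has no settled transport role (ENSG00000157637.13, chr17:81244811-81295307, minus strand). It had 31.6 and 37.1 CPM in CAL27 NEDD8i libraries, against 83.8 and 86.8 CPM in CAL27 DMSO libraries. In A431, SLC38A10 had 73.4 and 67.1 CPM under NEDD8i, against 85.5 and 81.7 CPM under DMSO. The DMSO libraries of the lines were alike in level, and the NEDD8i libraries were far lower in CAL27 than in A431. SLC38A10 fell by 1.31 ± 0.08 in CAL27 (edgeR adjusted p = 1.9e-10) and fell by 0.25 ± 0.07 in A431 (edgeR adjusted p = 0.0113), a difference of -1.06 ± 0.11 (edgeR adjusted p = 6.44e-07). The A431 call was lost without A431 DMSO replicate 1 (-0.21) and without A431 NEDD8i replicate 2 (-0.18).

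SLC38A9 encodes a lysosomal arginine sensor that acts upstream of mTORC1. It had 28.2 and 23.3 CPM in CAL27 NEDD8i libraries, against 21.2 and 21.8 CPM in CAL27 DMSO libraries. In A431, SLC38A9 had 35.6 and 37.3 CPM under NEDD8i, against 24.9 and 23.1 CPM under DMSO. The A431 groups stood apart, and in CAL27 a single NEDD8i library lay well above the other 3, without overlap of the groups. SLC38A9 rose by 0.26 ± 0.10 in CAL27 (edgeR adjusted p = 0.0426) and by 0.60 ± 0.10 in A431 (edgeR adjusted p = 8.93e-05). The CAL27 call was lost without CAL27 NEDD8i replicate 1 (0.11), CAL27 DMSO replicate 1 (0.25), CAL27 DMSO replicate 2 (0.30) or A431 NEDD8i replicate 2 (0.26), and the value was 0.40 without CAL27 NEDD8i replicate 2.

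The other tested SLC38 members are SLC38A5, SLC38A6 and SLC38A7. SLC38A5, which encodes the glutamine carrier SNAT5, fell by 0.47 ± 0.07 in CAL27 (edgeR adjusted p = 9.55e-06), and its A431 value was -0.15 ± 0.06 (edgeR adjusted p = 0.0645). That A431 value was uncalled in 6 of 15 alternatives and passed in the others, among them DESeq2 (adjusted p = 0.0486), no low-count filter (edgeR adjusted p = 0.0276), a 1 CPM filter (edgeR adjusted p = 0.0294), halved counts (edgeR adjusted p = 0.0294) and a fit of the A431 libraries alone (edgeR adjusted p = 0.0349). It also passed without A431 DMSO replicate 2 (-0.22), CAL27 NEDD8i replicate 1 (-0.14) or CAL27 NEDD8i replicate 2 (-0.14). SLC38A6 fell by 0.47 ± 0.12 in CAL27 (edgeR adjusted p = 0.00369), or by 0.39 without CAL27 DMSO replicate 2 (edgeR adjusted p = 0.0562), and its A431 value was 0.24 ± 0.11 (edgeR adjusted p = 0.105). SLC38A7, a lysosomal glutamine exporter, had values of -0.10 ± 0.13 in CAL27 (edgeR adjusted p = 0.544) and 0.21 ± 0.13 in A431 (edgeR adjusted p = 0.201). Its CAL27 value was -0.40 without CAL27 NEDD8i replicate 1 (edgeR adjusted p = 0.00485), and its A431 value passed narrowly without CAL27 NEDD8i replicate 1 or 2 and in a fit of the A431 libraries alone (0.22 each).

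The tested carriers of the SLC36 family rose where they were called. SLC36A1 encodes PAT1, which exports amino acids from lysosomes (ENSG00000123643.13, chr5:151437047-151492379, plus strand). It had 40.6 and 38.1 CPM in CAL27 NEDD8i libraries, against 26.3 and 30.6 CPM in CAL27 DMSO libraries. In A431, SLC36A1 had 23.4 and 23.8 CPM under NEDD8i, against 13.9 and 11.5 CPM under DMSO. The groups did not overlap in either line. SLC36A1 rose by 0.46 ± 0.10 in CAL27 (edgeR adjusted p = 0.0011) and by 0.89 ± 0.11 in A431 (edgeR adjusted p = 3.47e-06). The responses differed by -0.42 ± 0.15 (edgeR adjusted p = 0.038), a call that was lost with DESeq2 (-0.39, adjusted p = 0.0744) and its size factors (-0.39, edgeR adjusted p = 0.0581). It was also lost without A431 DMSO replicate 2 (-0.28), A431 NEDD8i replicate 1 (-0.43), A431 NEDD8i replicate 2 (-0.42), CAL27 DMSO replicate 2 (-0.30) or CAL27 NEDD8i replicate 2 (-0.38).

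SLC36A4 encodes PAT4, a carrier with high affinity for proline and tryptophan. It had 57.6 and 60.2 CPM in CAL27 NEDD8i libraries, against 33.5 and 31.3 CPM in CAL27 DMSO libraries. In A431, SLC36A4 had 1.09 and 1.02 CPM under NEDD8i, against 0.487 and 1.24 CPM under DMSO. It was plainly present in CAL27 and near the floor in A431, where the groups overlapped. SLC36A4 rose by 0.86 ± 0.14 in CAL27 (edgeR adjusted p = 3.71e-05, DESeq2 adjusted p = 0.0524), and its A431 value was 0.31 ± 0.30 (edgeR adjusted p = 0.43). The A431 value was 1.11 without A431 DMSO replicate 2 (edgeR adjusted p = 0.00336) and -0.23 without A431 DMSO replicate 1. The difference of the responses was 0.55 ± 0.33 (edgeR adjusted p = 0.229), or 1.11 without A431 DMSO replicate 1 (edgeR adjusted p = 0.00157) and -0.23 without A431 DMSO replicate 2.

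Of the SLC43 family, SLC43A2 encodes LAT4, a facilitative carrier of large neutral amino acids (ENSG00000167703.15, chr17:1569268-1628834, minus strand). It had 5.95 and 6.18 CPM in CAL27 NEDD8i libraries, against 21.8 and 21.0 CPM in CAL27 DMSO libraries. In A431, SLC43A2 had 1.68 and 0.947 CPM under NEDD8i, against 2.95 and 2.48 CPM under DMSO. The groups stood apart in both lines, by the wider margin in CAL27. SLC43A2 fell by 1.82 ± 0.19 in CAL27 (edgeR adjusted p = 2.44e-07) and fell by 1.07 ± 0.23 in A431 (edgeR adjusted p = 0.00108), where the value was -0.68 without A431 NEDD8i replicate 2. The difference was -0.75 ± 0.30 and was not called (edgeR adjusted p = 0.0646). It passed without A431 DMSO replicate 1 (-0.87) or A431 NEDD8i replicate 2 (-1.14), and was -0.28 without A431 NEDD8i replicate 1.

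SLC43A3, known as a carrier of purine bases rather than amino acids, had 249.7 and 225 CPM in CAL27 NEDD8i libraries, against 245 and 259.5 CPM in CAL27 DMSO libraries. In A431, SLC43A3 had 237 and 231 CPM under NEDD8i, against 129 and 136 CPM under DMSO. The CAL27 groups overlapped and the A431 groups were far apart. SLC43A3 rose by 0.82 ± 0.05 in A431 (edgeR adjusted p = 1.81e-09), and its CAL27 value was -0.09 ± 0.05 (edgeR adjusted p = 0.192), or -0.17 without CAL27 NEDD8i replicate 1 (edgeR adjusted p = 0.0175). SLC43A1, which encodes LAT3, had values of -0.58 ± 0.56 in CAL27 (edgeR adjusted p = 0.428) and -1.23 ± 0.55 in A431 (edgeR adjusted p = 0.0823), where it passed with a 1 CPM filter (edgeR adjusted p = 0.0325). SLC43A3 has 10.5% of its exonic bases inside another gene.

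Of the 14 transporters that were not tested, SLC1A6, SLC7A3, SLC7A10 and SLC7A13 were at 0 counts in all 8 libraries. The other 10, SLC1A7, SLC3A1, SLC7A4, SLC7A9, SLC7A14, SLC36A2, SLC36A3, SLC38A3, SLC38A8 and SLC38A11, had 1 to 8 counts in total. Several of them are known mainly from kidney, gut or brain. A count of 0 in a library allows up to 0.048 to 0.0612 CPM, taking 3 counts as the limit, and covers counting error only.

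The line comparison asked whether the response itself differed, and it used the same DMSO libraries as the comparisons above. The CAL27 response was higher than the A431 response for 4 of 26 transporters (15.4%, against 14.2% of all genes tested) and lower for 12 of 26 (46.2%, against 19.8% of all genes tested). The median difference was -0.40 over the 24 transporters with counts in both lines, against -0.04 over all genes tested. SLC7A2 entered this median at its fitted 4.85, though it had 0 counts in A431 NEDD8i libraries. SLC7A11, SLC1A3, SLC7A6 and SLC7A7 were the 4 higher ones, but of these only SLC7A11 rose in both lines. The 12 lower ones included the shared heavy chain SLC3A2, the light chains SLC7A5 and SLC7A8, the cationic carrier SLC7A1, the glutamine carriers SLC1A5, SLC38A1, SLC38A2 and SLC38A5, and also SLC36A1, SLC38A6, SLC38A10 and SLC43A3. Of these 12, 7 rose in A431, SLC38A10 fell there, and the other 4 did not pass the test there. The largest of the 12 in size was SLC38A10 at -1.06, and the smallest was SLC38A5 at -0.32, a call lost without A431 DMSO replicate 2 (-0.23) or A431 NEDD8i replicate 1 (-0.26).

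**Figure D4:**
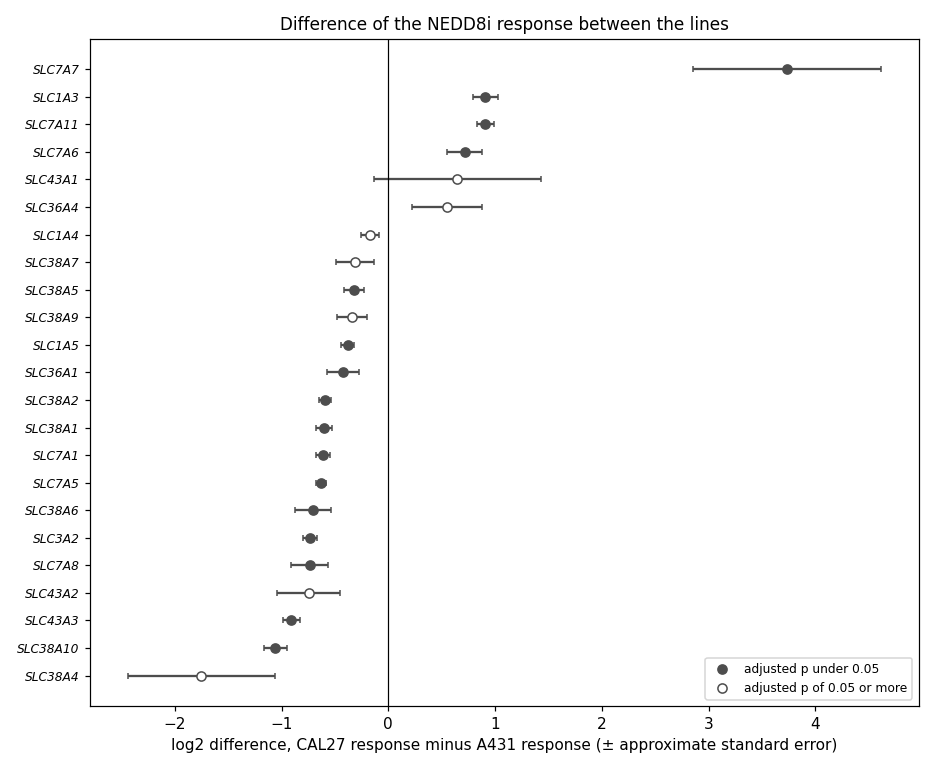
Difference of the NEDD8i response (CAL27 log2 change minus A431 log2 change, horizontal axis) for the 23 transporters with counts in every group, sorted by size; bars are approximate standard errors and filled points passed the test. SLC7A7 (3.73), SLC1A3 and SLC7A11 (0.91 each) and SLC7A6 (0.71) lie to the right as filled points, and 12 filled points lie to the left.

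Without treatment the lines already differed in which transporters they expressed. In DMSO libraries 10 of 26 transporters were higher in CAL27 than in A431 (38.5%, against 29.9% of all genes tested) and 9 were lower (34.6%, against 29% of all genes tested), shares not far from those of all genes. SLC36A4 was 38.2-fold higher in CAL27 than in A431, a log2 difference of 5.25 ± 0.20 (edgeR adjusted p = 3.72e-13). SLC38A4 was 9.90-fold higher in CAL27 (3.31 ± 0.42, edgeR adjusted p = 2.77e-06) and SLC43A2 7.84-fold higher (2.97 ± 0.20, edgeR adjusted p = 7.41e-10). With 3 counts over the group as the floor for A431, which had 0 counts, SLC1A2 was at least 258-fold higher in CAL27. On the same floor SLC1A1 was at least 41.2-fold higher. Each mate of a read pair was counted, so both bounds are too large as counts of fragments.

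On the other side, SLC7A7 was lower in CAL27 by a log2 difference of -3.82 ± 0.65 (edgeR adjusted p = 6.99e-05; -6.34 without CAL27 DMSO replicate 2). SLC7A8 was 7.20-fold lower in CAL27 (edgeR adjusted p = 1.26e-12), SLC7A11 4.87-fold lower (edgeR adjusted p = 4.33e-15), SLC38A5 3.19-fold lower (edgeR adjusted p = 4.8e-13) and SLC1A5 2.09-fold lower (edgeR adjusted p = 1.32e-12). SLC3A2 differed by only -0.10 ± 0.05 (edgeR adjusted p = 0.0751; 0.0421 with no low-count filter and 0.0312 in a fit of the DMSO libraries alone) and SLC38A10 by 0.03 ± 0.07 (edgeR adjusted p = 0.765). These baseline differences share DMSO libraries with the responses, so no relation between them was computed.

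Genes that use or sense the transported amino acids were read from fixed lists, which were drawn up with earlier results of these data known. Of 27 genes of the ATF4 response, 15 rose in both lines and 1 fell in both, and 2 changed in opposite directions. Taken by line, 18 of the 27 rose and 7 fell in CAL27, against 23.2% and 26.4% of all genes tested. In A431 18 rose and 2 fell, against 22.5% and 21.1%. TRIB3, a pseudokinase induced by ATF4, rose by 2.13 ± 0.05 in CAL27 (edgeR adjusted p = 1.16e-15) and by 2.01 ± 0.05 in A431 (edgeR adjusted p = 2.22e-15). STC2, a secreted glycoprotein, rose by 2.43 ± 0.08 in CAL27 (edgeR adjusted p = 8.61e-14) and by 3.07 ± 0.08 in A431 (edgeR adjusted p = 8.06e-15). VLDLR, a lipoprotein receptor, had 23.9 and 25.3 CPM in CAL27 NEDD8i libraries, against 10.9 and 13.7 CPM in CAL27 DMSO libraries (edgeR adjusted p = 0.000122). In A431 libraries VLDLR had 0.0875 and 0.273 CPM under NEDD8i, against 0 counts under DMSO.

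Most genes of cystine use and the NRF2 axis rose: of 17 tested genes 13 rose in both lines and 1 fell in both. The list's median log2 change was 1.41 in CAL27 and 1.63 in A431. CHAC1, which degrades glutathione and stands in the ATF4 list too, had 46.2 and 46.1 CPM in CAL27 NEDD8i libraries, against 5.41 and 4.51 CPM in CAL27 DMSO libraries. In A431, CHAC1 had 117 and 124 CPM under NEDD8i, against 35.1 and 36.4 CPM under DMSO. CHAC1 thus rose in both lines, as did the NRF2 targets SRXN1 (3.61 ± 0.11 in CAL27, 3.66 ± 0.10 in A431), TXNRD1 (3.32 ± 0.04 in CAL27, 3.08 ± 0.03 in A431) and GCLM (2.25 ± 0.04 in CAL27, 2.51 ± 0.04 in A431). GCLM is a subunit of the enzyme that makes the first step of glutathione from cysteine.

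For amino acid sensing at the lysosome, all 31 listed genes were tested. Of these, 3 rose in both lines, 6 fell in both and 1 changed in opposite directions, and the median log2 change was -0.38 in CAL27 and -0.28 in A431. SESN2, a leucine sensor that ATF4 induces, rose by 1.88 ± 0.09 in CAL27 (edgeR adjusted p = 1.01e-11) and by 1.66 ± 0.08 in A431 (edgeR adjusted p = 4.19e-11). TSC2, which restrains mTORC1, fell by 1.54 ± 0.07 in CAL27 (edgeR adjusted p = 1.01e-11) and fell by 0.40 ± 0.07 in A431 (edgeR adjusted p = 0.000124). MLST8 and LAMTOR2, parts of mTOR complexes and of its lysosomal anchor, also fell in both lines.

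Genes of glutamine and glutamate use were mixed: of 18 tested 6 rose in both lines, 3 fell in both and 4 changed in opposite directions. GLUL, glutamine synthetase, fell by 1.92 ± 0.04 in CAL27 (edgeR adjusted p = 2e-16) and also fell in A431 (edgeR adjusted p = 8.2e-13). PYCR3, a proline synthesis enzyme, fell by 2.28 ± 0.11 in CAL27 and fell by 0.73 ± 0.10 in A431, while GPT2, a mitochondrial alanine transaminase, rose by 1.06 ± 0.07 in CAL27 and by 1.26 ± 0.07 in A431. GFPT1, which uses glutamine to start hexosamine synthesis, rose by 0.97 ± 0.05 in CAL27 and by 1.16 ± 0.05 in A431. All these shared counts stand against the 13.3% of all genes tested that rose in both lines, the 12.8% that fell in both and the 4.99% that changed in opposite directions.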

How the data were processed

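RNA of CAL27 and A431 cells was measured with a QuantSeq FWD kit, which reads transcript 3′ ends. Each library has its own deposited table of whole-number read counts for every gene. STAR and GRCh38 are named in the submitters' processing notes, with no STAR version there. FeatureCounts 2.0.8 assigned filtered alignments to exons of GENCODE 39 (basic set) without regard to strand, per the file headers, which do not state the filter. The header set paired-end mode without fragment counting, so each mate counts, and 70.2% to 76.7% of gene counts from 1 to 40 were even. Single counts are thus not separate molecules, and errors and floors derived from counts are too small. Sense and antisense reads over shared bases cannot be told apart, and reads shared between near-identical or overlapping genes were not counted under the header's settings.

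From the deposited counts, edgeR 4.0.16 in R 4.3.3 fitted a mean to each of the 4 groups after filterByExpr (18738 genes kept) and TMM scaling. Quasi-likelihood tests had 4 residual and 12.3 prior degrees of freedom, with a common biological coefficient of variation of 0.0852, and p-values were adjusted by Benjamini-Hochberg over all genes tested. The approximate standard error is the size of the log2 change over the square root of F. CPM are the deposited counts over TMM-scaled library sizes. The steps were tested on simulated data. The chi-square of replicate counts over its degrees of freedom was 6.43 to 13.6, so none of the libraries was a duplicate. Exon overlap was computed with GenomicRanges 1.54.1, and promoter windows came from RefSeq (GRCh38.p14).

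Transporters given by library were those called in both lines the same way, called with a log2 change or difference of at least 1, or called for the line difference under DMSO with a log2 difference of at least 3. SLC7A5, SLC7A6, SLC38A2, SLC7A1 and SLC43A3 were added after their values were seen. From each gene list other than the cell type markers, at most 4 genes called in both lines were named, by mean size of change. CTNS and SLC66A1 were named in addition, from the genes that rose in both lines. The members and lists were chosen with earlier results of these data known. Alternatives were DESeq2 1.42.0, its size factors, other filters, fits of fewer libraries, halved counts, a replicate block, a 2-fold rule and leaving out each library.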

Additional observations from a re-analysis of the deposited data

Results flagged for a closer look

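For 16 transporters the NEDD8i response differed between the lines by edgeR's test of the difference itself (CAL27 log2 change minus A431 log2 change, Benjamini-Hochberg adjusted over all genes tested), and no explanation was tested. The difference was positive for SLC7A7 (3.73), SLC1A3 (0.91), SLC7A11 (0.91) and SLC7A6 (0.71). For SLC1A3 a positive value means a smaller decrease in CAL27, and for SLC7A11 a larger increase. It was negative for the heavy chain SLC3A2 (-0.74) and for SLC7A8 (-0.74), SLC7A5 (-0.63) and SLC7A1 (-0.61). It was also negative for the SLC38 members SLC38A10 (-1.06), SLC38A6 (-0.71), SLC38A1 (-0.60), SLC38A2 (-0.59) and SLC38A5 (-0.32), and for SLC43A3 (-0.91), SLC36A1 (-0.42) and SLC1A5 (-0.38).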

How the results depend on the processing

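None of the 1472 values of single transporters over 15 alternatives reversed a call, counting alternatives that gave a value: 1390 stayed on the same side of the threshold, 44 called ones were lost and 38 others passed. With a 2-fold rule the calls in CAL27 fell to 1 higher and 7 lower, those in A431 to 3 higher, those for the response difference to 1 higher and 1 lower, and those for CAL27 against A431 under DMSO to 6 higher and 5 lower. Leaving out each library gave 6 to 10 higher and 9 to 13 lower in CAL27, and 10 to 11 higher and 4 to 8 lower in A431. The lowest of these, 4 in A431, came without A431 NEDD8i replicate 2. The response difference then gave 4 to 5 higher and 10 to 14 lower, and the DMSO comparison 9 to 10 in each direction. Where a group was left with 1 library, that library was assumed to vary like the others. Replicates share numbers in the labels, but deviations of libraries with the same number correlated at -0.03 in CAL27 and 0.0056 in A431. These values show no strong effect shared by number. They cannot settle whether the samples were prepared in pairs. With the replicate block, calls were 10 higher and 10 lower in CAL27, 10 higher and 8 lower in A431, 4 higher and 14 lower for the difference, and 10 higher and 11 lower under DMSO, and 8 of 100 single calls changed. The response difference has no fit of fewer groups. Depth limits SLC1A1, SLC1A2, SLC7A2, SLC7A7, SLC38A4 and SLC43A1, all under 10 CPM in every library. It also limits SLC36A4 and SLC43A2 in A431.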

Other observations

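Amino acid transporters of other families were read from a list of 25 genes, of which 18 were tested. In both lines 4 of the 18 rose (against 13.3% of all genes tested), 1 fell (against 12.8%) and 3 changed in opposite directions (against 4.99%). SLC6A9, the glycine transporter GLYT1, was chosen after its values were seen, and had 28 and 26.6 CPM in CAL27 NEDD8i libraries, against 37.9 and 37.3 CPM in CAL27 DMSO libraries. In A431 it had 197 and 186 CPM under NEDD8i, against 45.9 and 51.8 CPM under DMSO. The A431 groups were far apart and the CAL27 groups moved the other way. SLC6A9 fell by 0.46 ± 0.07 in CAL27 (edgeR adjusted p = 2.7e-05) and rose by 1.97 ± 0.07 in A431 (edgeR adjusted p = 3.05e-13).

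SLC6A6, the taurine transporter, rose by 0.23 ± 0.07 in CAL27 (edgeR adjusted p = 0.0143) and by 1.79 ± 0.08 in A431 (edgeR adjusted p = 5.37e-12). SLC25A15, the mitochondrial ornithine carrier, fell by 1.25 ± 0.11 in CAL27 (edgeR adjusted p = 3.76e-08) and rose by 0.59 ± 0.11 in A431 (edgeR adjusted p = 0.00035). SLC25A12, the mitochondrial aspartate and glutamate carrier of the malate shuttle, fell by 1.06 ± 0.10 in CAL27 (edgeR adjusted p = 1.26e-07) and fell by 0.73 ± 0.10 in A431 (edgeR adjusted p = 1.55e-05). CTNS and SLC66A1, which export cystine and cationic amino acids from lysosomes, were also among the 4 that rose in both lines.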
